A study of Mus musculus with 14 samples.

Results

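The lysosome set followed here holds 43 genes, taken by name from a table of adipose tissue RNA that lists 54955 gene symbols or unnamed IDs. Each of the 43 has a single row. By role the set has 10 glycosidases, 5 sulfatases, 5 lipid hydrolases and their activators, 9 proteases, 5 proteins of the lysosomal membrane and of sterol transport, 7 parts of the proton pump, and the regulator Tfeb with the calcium channel Mcoln1. The tissue came from 14 C57BL/6 mice at 21 weeks after birth, 7 with the genotype ko-dectin1 (KO, replicates 1 to 7) and 7 wild type (WT, replicates 3 to 9), and the labels name no treatment, sex or fat depot. Dectin-1 is the β-glucan receptor of myeloid cells, encoded by Clec7a; how the gene was disrupted and whether controls were littermates is not given in the sources used here. The comparison asks how loss of that receptor alters gene expression in fat.

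Values are in TPM, each gene's share of all transcripts after scaling by gene length, so levels can be set side by side between genes. Between 13487 and 15562 genes reached 1 TPM in a library, read depth is unknown, and the spread between mice is the measure of error. Clec7a stood at 4.02 to 10.46 TPM in KO (median 6.33) and 4.1 to 18.9 TPM in WT (median 12.5), with a log2 fold change of -0.48 ± 0.33 (SE; limma adjusted p = 0.59), so the targeted gene did not separate the groups and "KO" means libraries labelled KO throughout. Adipocyte transcripts were present in every library, with adiponectin (Adipoq) at 683 TPM or more. KO replicate 7 and WT replicates 4 and 7 stood apart in lymphoid transcripts, with the B-cell gene Cd79a at 1.52, 0.62 and 1.31 TPM against 177 TPM or more in the other 11 libraries. In bulk tissue, fewer cells of a type and less RNA per cell cannot be told apart.

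Lysosomes break down polymers and lipids with acid hydrolases, and a vacuolar proton pump keeps their lumen acid. That pump has a membrane sector (V0) that carries protons and a cytosolic sector (V1) that splits ATP. The transcription factor TFEB raises many of these genes together through a promoter element called CLEAR, whose core is the letters CACGTG. In fat, macrophages that take up lipid are known for high lysosome content, and adipocytes use lysosomes for lipid and organelle turnover.

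The promoter windows of the set, 250 bases before to 50 bases after the RefSeq start site, were searched for the core CACGTG, which reads the same on both strands, and for the longer GTCACGTG on either strand, which contains it. Windows were found for 36 members (RefSeq, build GRCm38.p6), and Ctsh, Ctsb, Atp6v1h, Atp6v1b2, Galns, Npc1 and Asah1 had none in the table. The core was present in 14 of 36 members (38.9%), against 8.09% of the 27025 genes of the promoter table and 11.4% of its 10597 genes that were tested for expression. The longer form was present in 11 of 36 members (30.6%), against 2.55% of all genes in that table and 4.59% of its tested genes. The full palindrome, the longer form followed by AC, was present in 0 of 36 members, against 0.37% of all genes in that table and 0.745% of its tested genes. In all, the 14 members held 21 cores, of which 16 began within 100 bases upstream of the start site. Stretches are shown for Ctsd, the member with a core whose fold change was largest, for Glb1, Lamp1 and Atp6v0d1, whose groups did not overlap, and for Atp6v0b and Mcoln1, which hold the same letters and differed little. For Ctsd the nearer of 2 cores is given; capitals mark the core, with GT before it or AC after it where present.
Ctsd (chr7:142387908-142387937, minus strand): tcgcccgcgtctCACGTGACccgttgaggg
Glb1 (chr9:114401018-114401047, plus strand): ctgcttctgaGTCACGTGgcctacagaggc
Lamp1 (chr8:13159088-13159163, plus strand): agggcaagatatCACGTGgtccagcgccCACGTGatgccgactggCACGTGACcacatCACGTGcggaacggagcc
Atp6v0d1 (chr8:105566050-105566079, minus strand): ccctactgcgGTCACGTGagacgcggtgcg
Atp6v0b (chr4:117887330-117887377, minus strand): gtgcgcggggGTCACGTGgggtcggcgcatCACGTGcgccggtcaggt
Mcoln1 (chr8:3500436-3500491, plus strand): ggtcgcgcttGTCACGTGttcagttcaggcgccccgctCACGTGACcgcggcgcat
Lamp1 held 4 cores in 76 bases, the most of any member. Atp6v0c, whose groups did not overlap either, had a window without a core. The core was searched because CLEAR is known from genes of this kind, so its share here is a description and not a test. A match of letters is likewise not a site of binding.

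Across the set, values were mostly lower in KO, but no member passed the test over all genes. Of 43 members, 0 were called changed by limma at an adjusted p under 0.05, where 0.0204% of the 14719 genes tested were called; the smallest adjusted p was 0.13 (Hexa). At an unadjusted p under 0.05, 13 members (30.2%) were lower and 0 higher, against 6.74% of all genes lower and 4.67% higher. The log2 fold change was below 0 in 38 of 43 members, against 45.4% of all genes, and its median was -0.19 over the members and 0.04 over all genes. In 4 members, 9.30% of the set, all 7 KO libraries lay below all 7 WT libraries, as in 0.211% of all genes; these were Glb1, Lamp1, Atp6v0c and Atp6v0d1. Because the set was proposed with earlier results of these data known, these counts describe it and are not a test of it. The summed level of the 43 genes was 4044 to 5752 TPM in KO (median 4472) and 4869 to 6969 TPM in WT (median 5790), and the groups overlapped.

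**Figure D1:**
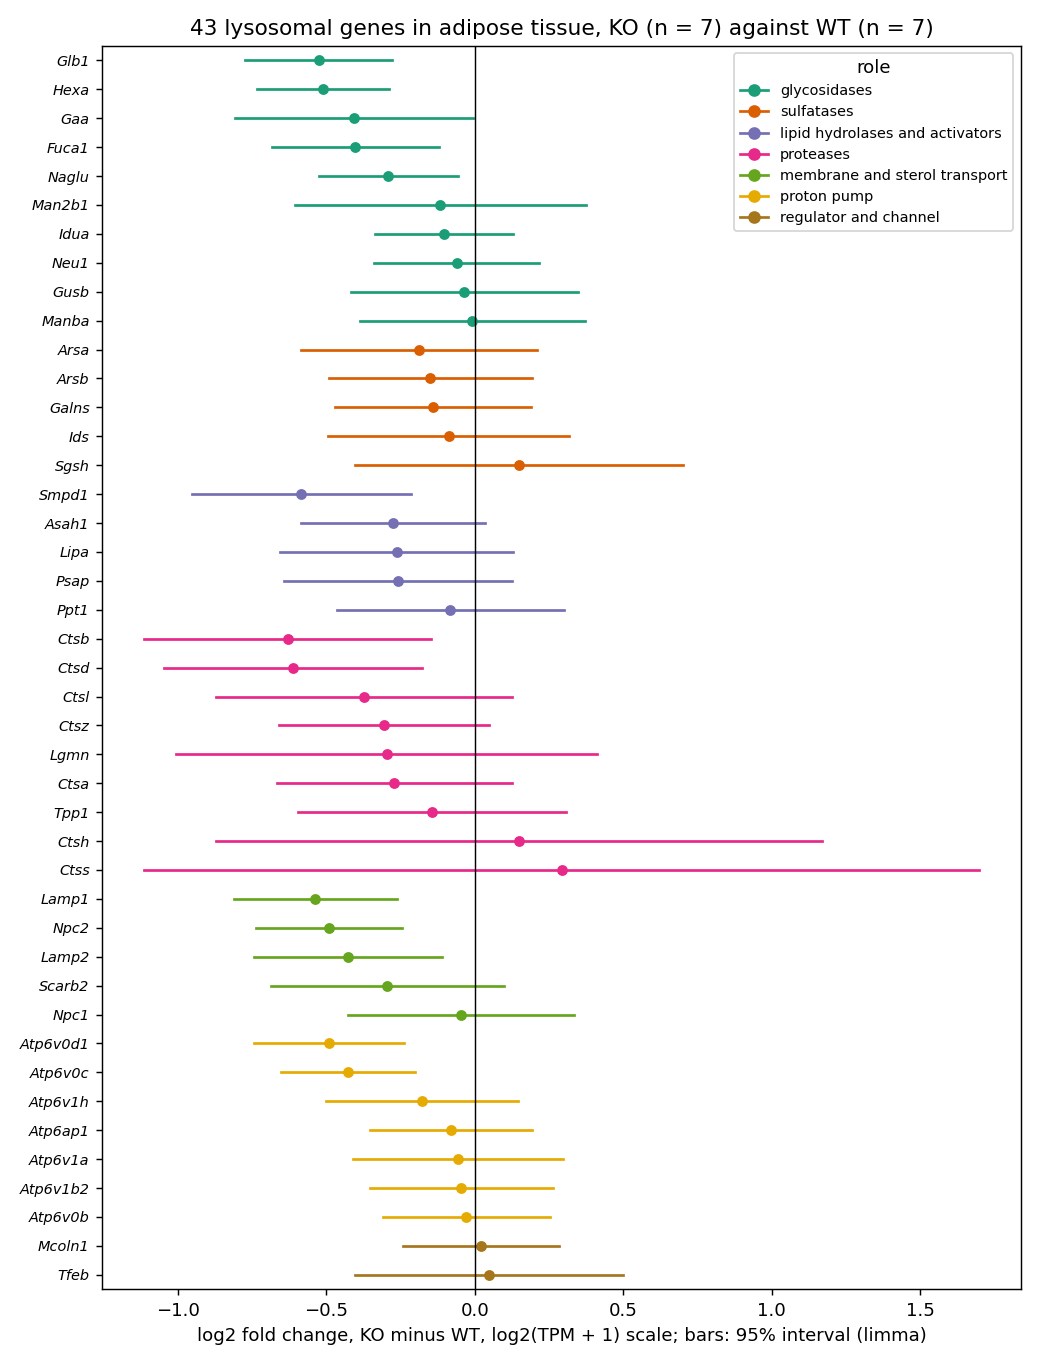
Log2 fold change (KO minus WT, log2(TPM + 1) scale) of each of the 43 members with its 95% interval from limma, coloured and grouped by role (n = 7 KO and 7 WT). Points lie left of 0 for 38 members; the widest intervals are those of Ctss and Ctsh.

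The number of members with lower values moved with the libraries used. Leaving out 1 library gave 33 of 43 (without WT replicate 3) to 42 of 43 (without WT replicate 4), and without the 3 lymphoid-poor libraries 42 of 43 were lower with a median of -0.26. The median lay furthest from 0 without WT replicate 6, at -0.31 with 37 of 43 lower. In the 10 libraries whose replicate numbers occur in both groups (3 to 7), 29 of 43 were lower with a median of -0.12 while the median of all genes was 0.12. With limma's weights that count scattered libraries less, 13 members were called lower and 0 higher, where 3.91% of all genes were lower and 1.68% higher. With each library's macrophage score as a covariate, 9 members were called lower and 1 higher (Sgsh), but 4.09% of all genes were then called lower and 15.4% higher, and the median of the members was -0.08 against 0.13 over all genes. In that fit 26 of 43 members were lower, the fewest under any alternative, and 17 were higher. Gusb, Man2b1 and Manba were among those 17, at 0.16, 0.16 and 0.17.

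Glycosidases, which trim sugars from glycans and glycolipids, had lower values in KO in 10 of 10 members. Hexa, the α subunit of β-hexosaminidase A that breaks down GM2 ganglioside, was at 69.9 to 86.4 TPM in KO (median 72.3) and 84.95 to 131 TPM in WT (median 102). Only KO replicate 3, at 86.4 TPM, reached the WT range, above WT replicate 4 at 84.95 TPM; the log2 fold change was -0.51 ± 0.10 (SE; exact permutation p = 0.0012, limma adjusted p = 0.13). Glb1, the β-galactosidase whose promoter core is printed above, was at 13.7 to 19.1 TPM in KO (median 16.1) and 19.8 to 31.2 TPM in WT (median 23.5). Its groups did not overlap, and its log2 fold change was -0.53 ± 0.12 (SE; exact permutation p = 0.00058, the smallest that 14 libraries can give; limma adjusted p = 0.16). Glb1 was the single member called under quantile normalization (adjusted p = 0.018) and under median-ratio scaling (adjusted p = 0.023), in a range of 0.0082 to 0.51 over 29 alternatives.

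Fuca1, which removes fucose, was at 58.6 to 80.5 TPM in KO (median 74.02) and 75.5 to 133 TPM in WT (median 92.3), with overlapping groups and a log2 fold change of -0.40 ± 0.13 (SE; limma adjusted p = 0.29). Naglu, an enzyme of heparan sulfate breakdown, was at 14.2 to 20.1 TPM in KO (median 17.2) and 19.1 to 27.6 TPM in WT (median 19.9), and 6 of 7 KO libraries lay below the lowest WT library. Its log2 fold change was -0.29 ± 0.11 (SE; limma adjusted p = 0.36). The other 6 glycosidases included Gaa, which splits glycogen, at -0.41 ± 0.19 (SE; limma adjusted p = 0.43). Gusb, Idua, Man2b1, Manba and Neu1 lay between -0.12 and -0.0089. The family was uneven, with Hexa and Glb1 at one end and Manba at the other.

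Sulfatases, which remove sulfate from glycosaminoglycans and sulfatide, had small differences, with a median log2 fold change of -0.14 over 5 members and no unadjusted p under 0.05. Arsa, which acts on sulfatide, was at 11.8 to 20.06 TPM in KO (median 17.2) and 10.7 to 26.3 TPM in WT (median 20.6). Arsb was at 18.3 to 24.2 TPM in KO (median 19.7) and 13.3 to 31.03 TPM in WT (median 24.6). Galns was at 6.05 to 8.84 TPM in KO (median 8.23) and 6.24 to 12.2 TPM in WT (median 8.02). Groups overlapped in each, with limma adjusted p-values of 0.69 to 0.71. Sgsh, which removes the N-linked sulfate of glucosamine in heparan sulfate, was at 5.53 to 12.5 TPM in KO (median 10.1) and 4.19 to 15.6 TPM in WT (median 9.53), the single sulfatase with a fold change above 0 (0.15 ± 0.26, SE; limma adjusted p = 0.81). Its fold change was 0.011 without WT replicate 4, 0.29 without WT replicate 3 and -0.14 with the adipocyte score as a covariate, and with the macrophage score it was 0.45 (limma adjusted p = 0.036, in a range of 0.036 to 0.99 over 29 alternatives). Ids, which also acts on heparan sulfate, had a log2 fold change of -0.09 ± 0.19 (SE).

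Among the lipid hydrolases, Smpd1, the acid sphingomyelinase, was at 15.3 to 35.8 TPM in KO (median 23.9) and 28.3 to 48.8 TPM in WT (median 36.6). KO replicates 1, 2, 4, 5 and 6 lay below every WT library while KO replicates 3 and 7 lay within the WT range, and the log2 fold change was -0.59 ± 0.17 (SE; exact permutation p = 0.0047, limma adjusted p = 0.24). Asah1, the acid ceramidase that takes the next step after sphingomyelinase, was at 28.5 to 40.3 TPM in KO (median 33.2) and 28.9 to 57.8 TPM in WT (median 41.95; limma adjusted p = 0.48). Psap, the precursor of the saposins that present lipids to these enzymes, was the most abundant member. It stood at 741 to 1070 TPM in KO (median 805) and 601 to 1419 TPM in WT (median 1056), with a log2 fold change of -0.26 ± 0.18 (SE; limma adjusted p = 0.59). Lipa, the lysosomal acid lipase that frees fatty acids from cholesteryl esters and triglycerides, was at 17.4 to 24.7 TPM in KO (median 20.3) and 13.8 to 34.3 TPM in WT (median 26.2). Lipa and Psap were both lowest of all libraries in WT replicate 6 and highest in WT replicate 3, so their groups overlapped. Ppt1, a thioesterase that removes palmitate from proteins, had a log2 fold change of -0.08 ± 0.18 (SE).

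**Figure D2:**
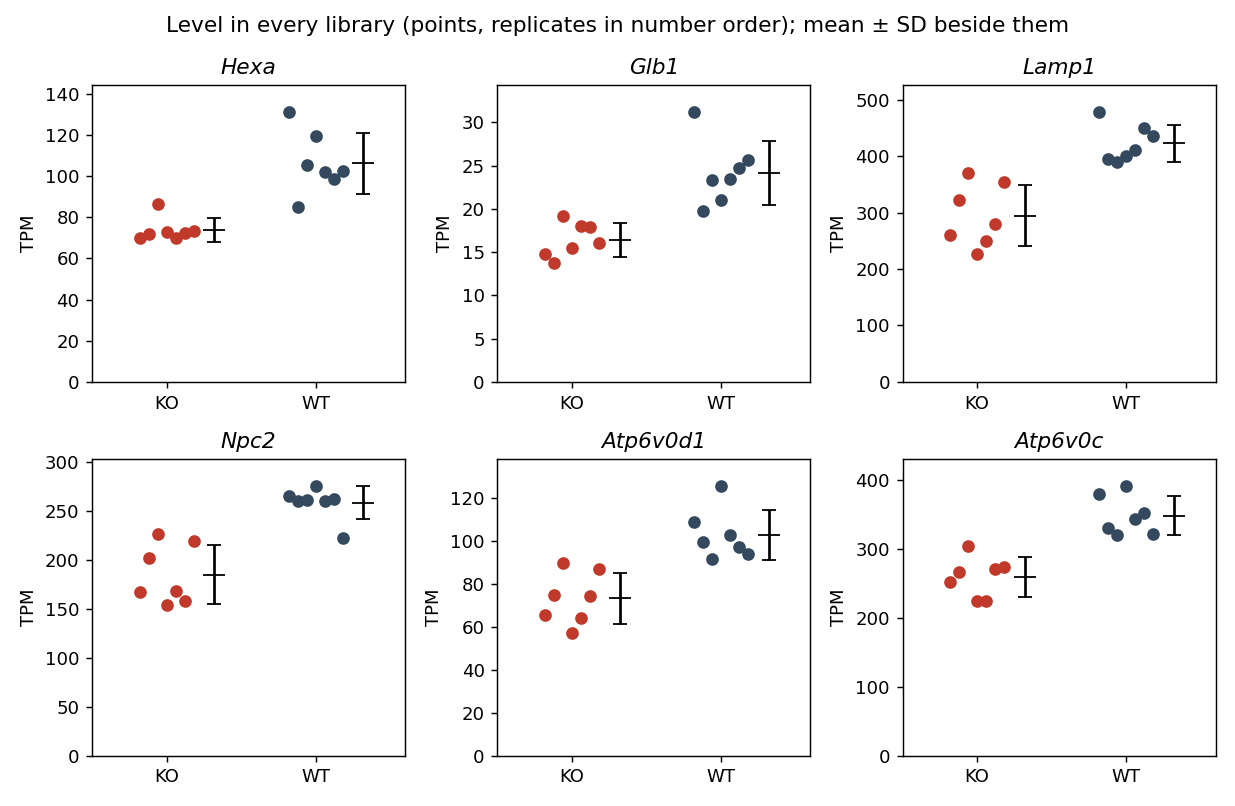
TPM in every library for Hexa, Glb1, Lamp1, Npc2, Atp6v0d1 and Atp6v0c, KO left and WT right (n = 7 each), with the mean ± SD beside the points and axes from 0. The groups do not overlap for Glb1, Lamp1, Atp6v0d1 and Atp6v0c, while in Hexa and in Npc2 a single WT library lies inside the KO range.

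Proteases held the largest differences of the set and also the widest scatter. Ctsb, a cysteine cathepsin, was at 266 to 723 TPM in KO (median 403) and 549 to 906 TPM in WT (median 743), with a log2 fold change of -0.63 ± 0.23 (SE; exact permutation p = 0.023, limma adjusted p = 0.33). Ctsd, the main aspartic cathepsin, was at 276 to 699 TPM in KO (median 352) and 535 to 701 TPM in WT (median 619), with -0.61 ± 0.20 (SE; exact permutation p = 0.017, limma adjusted p = 0.30). In both genes KO replicates 1, 4, 5 and 6 lay below every WT library, and KO replicates 2 and 3 lay within the WT range. Ctsl was at 89.6 to 248 TPM in KO (median 144) and 124 to 282 TPM in WT (median 204). Ctsz was at 184 to 274 TPM in KO (median 242) and 180 to 363 TPM in WT (median 316). Both had overlapping groups, with limma adjusted p-values of 0.55 for Ctsl and 0.49 for Ctsz. Ctsa, the carboxypeptidase that protects Glb1 and Neu1 in a complex, and Lgmn, the asparaginyl endopeptidase, had log2 fold changes of -0.27 ± 0.18 and -0.30 ± 0.33 (SE). Tpp1, a tripeptidyl peptidase, had -0.14 ± 0.21 (SE).

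Ctsb and Ctss were low in different libraries. Ctsb was lowest in KO replicate 4, at 266 TPM, where Adipoq was also lowest of all libraries at 683 TPM, and highest in WT replicate 7, at 906 TPM, where Adipoq was 4037 TPM. Ctss, a cysteine cathepsin known in antigen-presenting cells for trimming the invariant chain, was at 32.3 TPM in KO replicate 7 and at 29.97 and 42.0 TPM in WT replicates 4 and 7. In the other 11 libraries it was at 99.4 to 334 TPM. Ctss was the single member, 2.33% of the set, whose 3 lymphoid-poor libraries all lay below the other 11, as in 13.7% of all genes; no member had all 3 above the other 11, as 5.72% of all genes did. Ctsh, an aminopeptidase of the same family, was at 40.3, 29.3 and 73.3 TPM in those 3 libraries and at 68.6 to 216 TPM in the rest. Ctss ranged over a factor of 11.1 and Ctsh over a factor of 7.36 from the lowest to the highest library. Their group means were 208 ± 106 and 145 ± 66 TPM in KO and 195 ± 132 and 136 ± 71 TPM in WT (SD, n = 7 each; limma adjusted p = 0.86 and 0.90). The direction of both is not firm. The log2 fold change was 0.29 for Ctss and 0.15 for Ctsh over all libraries, -0.09 for each without the 3 lymphoid-poor libraries, -0.025 and -0.041 with library weights, and -0.58 and -0.50 with the adipocyte score. Ctss, Ctsh and the marker genes were picked after their values were seen.

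**Figure D3:**
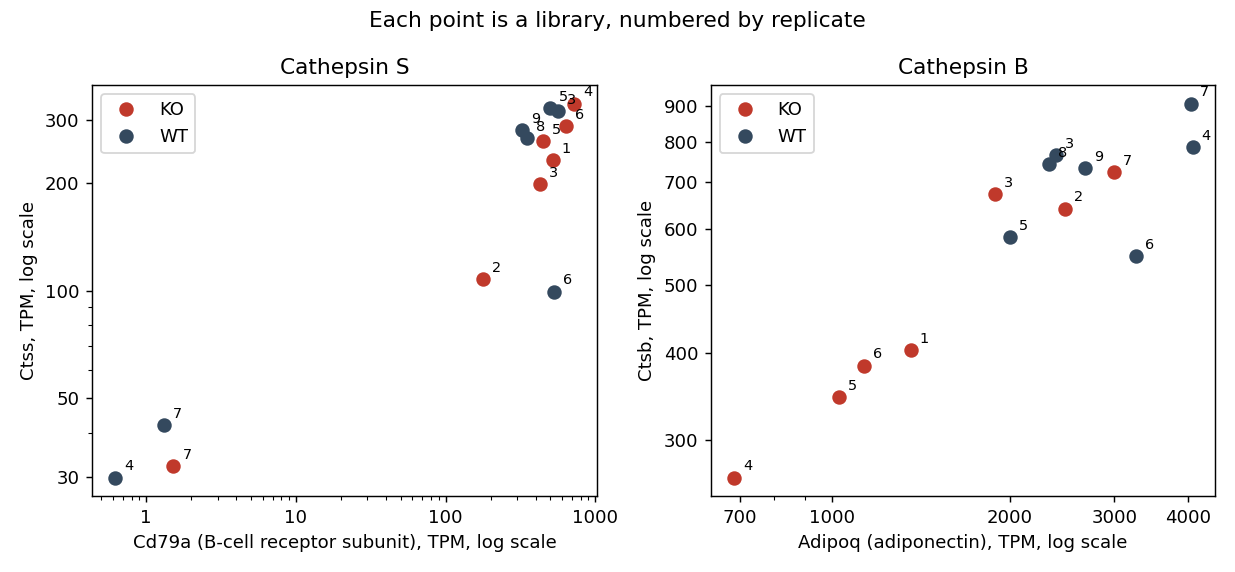
Ctss against Cd79a (left) and Ctsb against Adipoq (right), both axes TPM on log scales, each point a library numbered by its replicate, KO red and WT dark blue. KO replicate 7 and WT replicates 4 and 7 lie at the bottom left for Ctss but near the top right for Ctsb.

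Marker lists of other cell types also differed between the libraries. Summed over 14 adipocyte markers, the level was 17251 to 79211 TPM in KO (median 37710) and 41756 to 82816 TPM in WT (median 53396), and 12 of 14 had lower values in KO. Over 10 markers of lipid-associated macrophages it was 4518 to 12160 TPM in KO and 9345 to 13755 TPM in WT, with 8 of 10 lower. That sum was highest in KO replicate 7 and WT replicates 4 and 7, where the adipocyte sum was highest as well. Of that list, Trem2 was at only 1.19 to 2.73 TPM in KO and 2.14 to 10.2 TPM in WT. The part of adipocytes in that sum was not tested. Over 19 general macrophage markers the summed level was 668 to 1930 TPM in KO and 492 to 2553 TPM in WT, with 16 of 19 lower. Over 9 B and plasma cell markers it was 19.1 to 2045 TPM in KO and 4.44 to 1531 TPM in WT, with 9 of 9 higher in KO. Over 7 nuclear-retained RNAs, a sign of RNA composition, it was 424 to 815 TPM in KO and 253 to 400 TPM in WT, so those groups did not overlap. Over 8 skeletal muscle markers it was 23.3 to 7130 TPM in KO (median 123) and 35.4 to 22338 TPM in WT (median 2061), with 7 of 7 tested markers lower and a median log2 fold change of -1.70, the largest shift of the 13 lists. Over 9 T-cell markers it was 26.2 to 1032 TPM in KO and 6.2 to 1062 TPM in WT, with 9 of 9 higher and a median of 1.08. Dendritic cell markers were higher in 7 of 7 and endothelial markers in 5 of 7. Markers of adipose progenitors were lower in 7 of 9, of mast cells in 4 of 5, of pancreas in 5 of 5, and of neutrophils and monocytes in 3 of 6. Limma called 0 genes of any of these lists, no marker was at 0 in all libraries, and Ly6g, Ms4a2 and Kcnq1ot1 stayed under 1 TPM. With the adipocyte score as a covariate, 41 of 43 members were lower with a median of -0.23, against -0.014 over all genes. The log2 fold change of Ctsb was then -0.30, that of Smpd1 -0.33, of Ctsd -0.39, of Lamp2 -0.23, of Gaa -0.18, of Scarb2 -0.15 and of Ctsl -0.066, each nearer to 0 than without the covariate. Lamp1, Npc2, Atp6v0d1 and Atp6v0c were also nearer to 0, at -0.42, -0.39, -0.38 and -0.37. The log2 fold change lay further from 0 for others, at -0.64 for Lgmn, -0.46 for Ctsz and -0.30 for Man2b1. Hexa was at -0.53 and Glb1 at -0.57. The part of the lymphoid, muscle and nuclear RNA levels in these differences was not tested.

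Membrane proteins and sterol carriers had lower values in KO throughout (5 of 5), and the median of their log2 fold changes was -0.43. Lamp1, the most abundant lysosomal membrane glycoprotein of the set, was at 227 to 369 TPM in KO (median 280) and 389 to 478 TPM in WT (median 411). The groups did not overlap, and the log2 fold change was -0.54 ± 0.13 (SE; exact permutation p = 0.00058, limma adjusted p = 0.19). Lamp2, its relative with a part in chaperone-mediated autophagy, was at 48.8 to 90.9 TPM in KO (median 62.4) and 70.4 to 102 TPM in WT (median 92.1), with overlap and a log2 fold change of -0.43 ± 0.15 (SE; limma adjusted p = 0.32). Npc2, which lifts cholesterol inside the lysosome and hands it to the membrane protein Npc1, was at 154 to 226 TPM in KO (median 168) and 222 to 276 TPM in WT (median 262). A single WT library, replicate 9 at 222 TPM, lay below the highest KO library, and the log2 fold change was -0.49 ± 0.12 (SE; exact permutation p = 0.0012, limma adjusted p = 0.18). Npc1 itself was at 12.7 to 20.03 TPM in KO and 11.01 to 25.3 TPM in WT, with a log2 fold change of -0.05 ± 0.18 (SE; limma adjusted p = 0.92). Scarb2, the carrier of glucocerebrosidase, was at 22.3 to 40.4 TPM in KO (median 27.7) and 21.3 to 49.8 TPM in WT (median 41.3; limma adjusted p = 0.55).

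The proton pump was uneven as well. Atp6v0c, the subunit of the proton-carrying ring, was at 224 to 304 TPM in KO (median 267) and 320 to 391 TPM in WT (median 343), with no overlap and a log2 fold change of -0.43 ± 0.11 (SE; exact permutation p = 0.00058, limma adjusted p = 0.21). Of 2 rows named as pseudogenes of Atp6v0c, Atp6v0c-ps1 was listed at 0 in every library and Atp6v0c-ps2 in all but KO replicate 3 (0.31 TPM); how reads shared with such copies were divided is not given in the sources used here. Atp6v0d1, which links the ring to the stalk, was at 56.96 to 89.7 TPM in KO (median 74.4) and 91.4 to 126 TPM in WT (median 99.5), also with no overlap (log2 fold change -0.49 ± 0.12, SE; exact permutation p = 0.00058, limma adjusted p = 0.19). Atp6v0d1 holds the longer promoter motif, while Atp6v0c held no core in its window. The third V0 member, Atp6v0b, carries the same letters as Atp6v0d1. It stood at 127 to 170 TPM in KO (median 155) and 119 to 219 TPM in WT (median 149). The log2 fold change of Atp6v0b was -0.03 ± 0.13 (SE).

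The V1 subunits differed little in the main comparison. Atp6v1h, a regulatory subunit, was at 28.1 to 62.2 TPM in KO (median 36.8) and 41.2 to 52.04 TPM in WT (median 44.8), and KO was the wider group. Atp6v1a and Atp6v1b2, which form the ATP-splitting head, had log2 fold changes of -0.06 ± 0.17 and -0.05 ± 0.14 (SE), with 95% intervals of -0.41 to 0.30 and -0.35 to 0.26. With library weights Atp6v1h, Atp6v1a and Atp6v1b2 were at -0.33, -0.26 and -0.20, and the V0 member Atp6v0b was at 0.04. With the adipocyte score as a covariate Atp6v1h, Atp6v1a and Atp6v1b2 were at 0.0044, 0.027 and -0.0092. Atp6ap1, an accessory protein of the pump, was at 95.2 to 129 TPM in KO (median 101) and 86.5 to 140.1 TPM in WT (median 110). Over 3 V0 members the summed level was 424 to 564 TPM in KO and 533 to 735 TPM in WT, and over 3 V1 members it was 92.3 to 146 TPM in KO and 90.9 to 144 TPM in WT. The ratio of the V0 sum to the V1 sum was 3.59 to 4.63 in KO (median 4.06) and 3.70 to 8.09 in WT (median 4.55). WT replicate 6 held the ratio of 8.09, with the lowest Atp6v1a and the highest Atp6v0c of all libraries. The V0 members are listed at gene lengths of 1000 to 1629 bases and the V1 members at 2049 to 3896 bases. The part of gene length in the ratio was not tested.

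**Figure D4:**
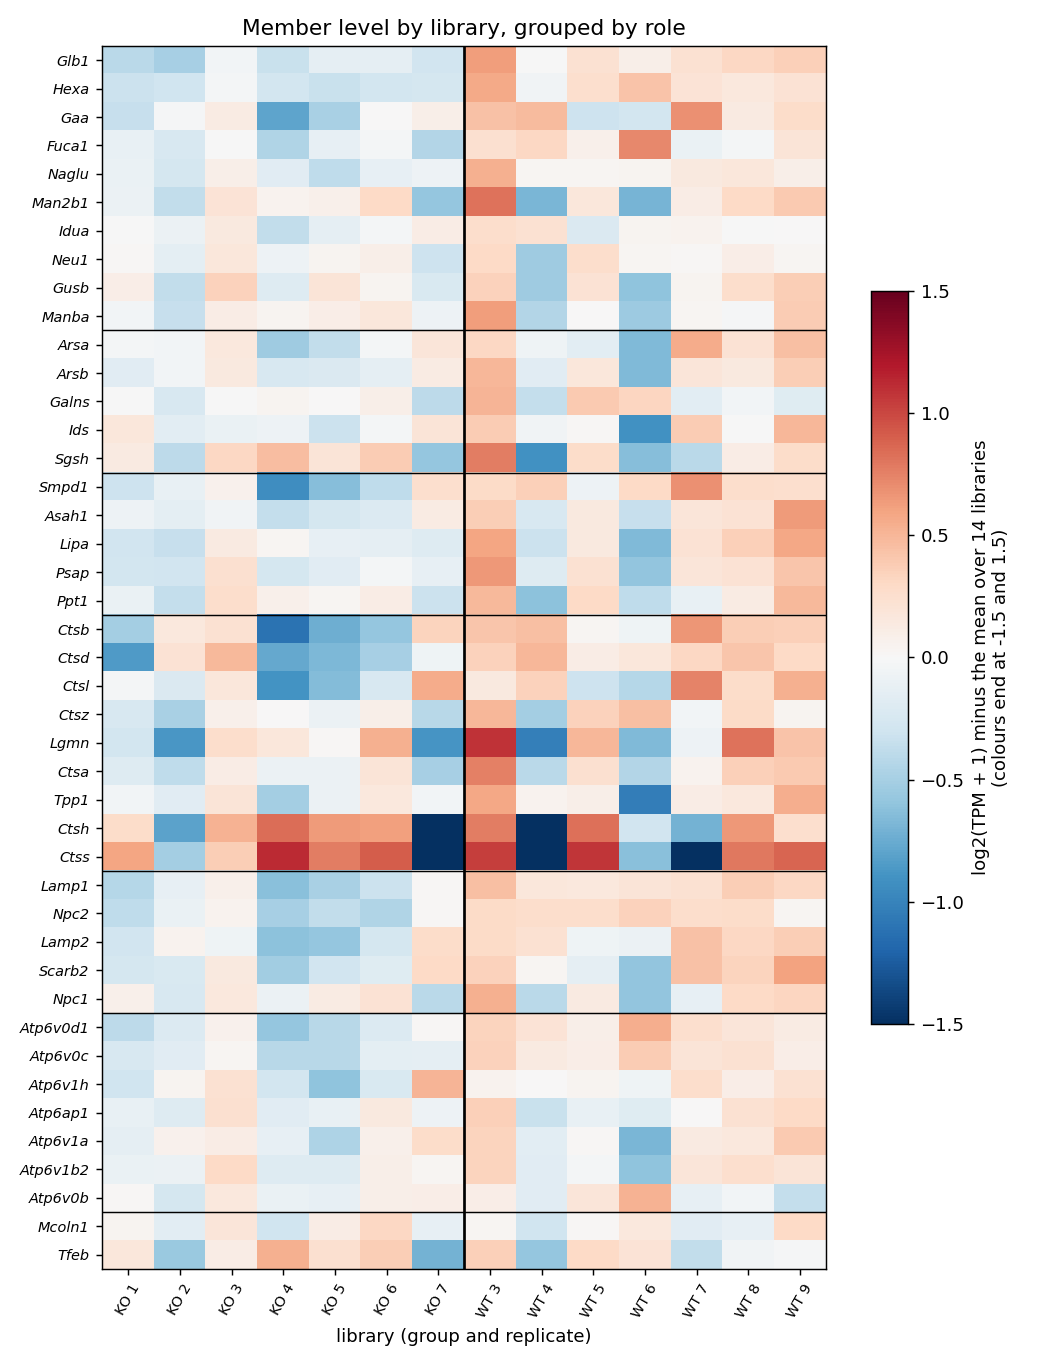
Log2(TPM + 1) of each member minus its mean over 14 libraries, KO columns left of the line and WT columns right, rows grouped by role. Ctss and Ctsh are dark blue in KO 7 and WT 4, and 13 members are lowest in WT 6 while 21 are highest in WT 3.

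Tfeb, the regulator of these genes, was at 15.3 to 37.6 TPM in KO (median 29.04) and 16.8 to 33.1 TPM in WT (median 25.3), with a log2 fold change of 0.05 ± 0.21 (SE) and a 95% interval of -0.40 to 0.50 (limma adjusted p = 0.93). Mcoln1, the lysosomal calcium channel whose promoter holds the longer motif at both of its cores, was at 21.99 to 34.1 TPM in KO (median 28.1) and 22.02 to 33.8 TPM in WT (median 27.7). Its log2 fold change was 0.02 ± 0.12 (SE; limma adjusted p = 0.95). Neither direction is firm, since both turn under some alternatives. Tfeb was under 20 TPM in KO replicates 2 and 7 and in WT replicates 4 and 7, and above it in the other 10 libraries. The median log2 fold change was -0.29 over the 14 members with the promoter core and -0.15 over the 22 without it, which is a description of this set.

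**Figure D5:**
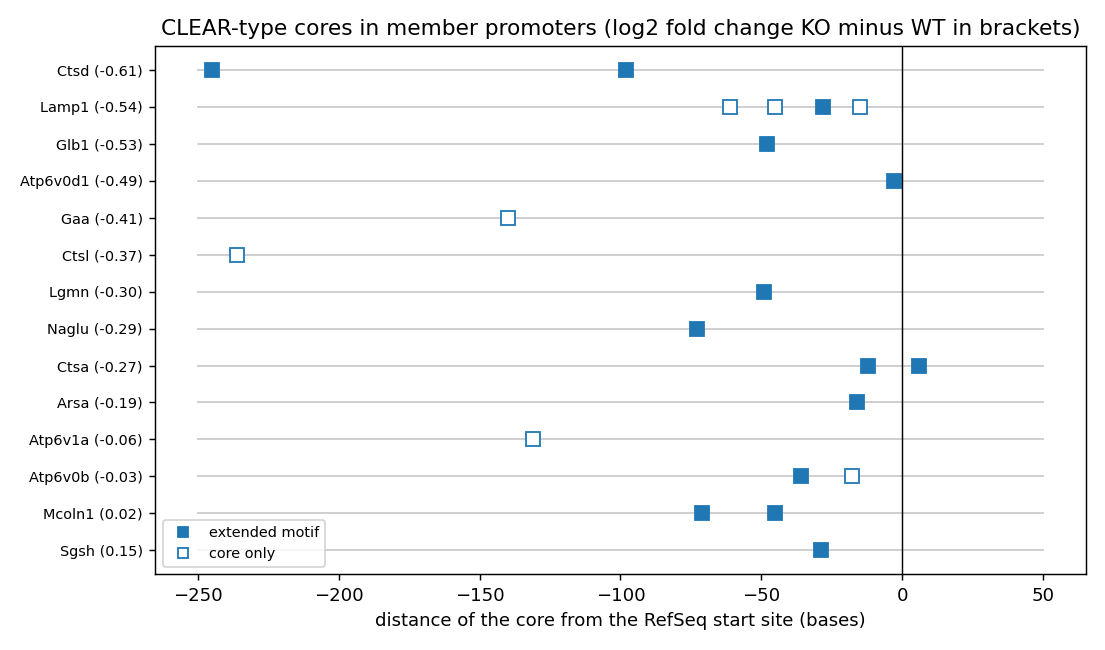
Position of each CACGTG core in the promoter windows of 14 members, in bases from the RefSeq start site; filled squares are the longer motif and open squares the core alone, and genes run from the lowest to the highest log2 fold change. Lamp1 (-0.54) has 4 cores, and Sgsh (0.15) and Mcoln1 (0.02) hold the longer motif too.

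Over the libraries, 38 of 43 members had their highest value in a WT library, 21 of them in WT replicate 3. The lowest value lay in a KO library for 21 members and in a WT library for 22, and 3 libraries held most of these lows (KO replicate 4 with 12, WT replicate 6 with 13, WT replicate 4 with 8). The highest over the lowest library was a factor under 3 for 35 members, and the smallest was that of Mcoln1 at 1.55. By level, 13 members averaged above 100 TPM, led by Psap, Ctsb and Ctsd at means of 929, 607 and 521 TPM over all libraries. Sgsh, Galns and Manba averaged under 10 TPM, and no member was under 4.19 TPM in any library.

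Genes of the same organelle outside the set were described by a list of 100, of which 98 were in the table and 92 were tested. Limma called 0 of them; 15 (16.3%) were lower and 3 higher at an unadjusted p under 0.05, against 6.74% of all genes lower and 4.67% higher. The log2 fold change was below 0 in 59 of 92 (64.1%), against 45.4% of all genes, with a median of -0.08 against 0.04. In 2 of them (2.17%), Gm2a and Tmem192, all KO libraries lay below all WT libraries, as in 0.211% of all genes. Other hydrolases were lower in 23 of 30, with a median of -0.25. Among them Pla2g15, a lysosomal phospholipase, averaged 14.5 ± 1.8 TPM in KO against 21.4 ± 4.1 TPM in WT, and Gm2a, the activator that hands GM2 ganglioside to the hexosaminidase, 55.9 ± 6.6 TPM in KO against 72.6 ± 7.6 TPM in WT (SD, n = 7 each; limma adjusted p = 0.21 and 0.22).

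Membrane proteins outside the set were lower in 11 of 22, among them Tmem192 at 33.7 ± 2.5 TPM in KO against 43.5 ± 5.1 TPM in WT, and Cd63 at 375 ± 67 TPM in KO against 519 ± 94.5 TPM in WT (SD, n = 7 each; limma adjusted p = 0.22 and 0.27). Of 10 genes listed under enzyme sorting to lysosomes, 5 were lower. That list included progranulin (Grn), at 119 ± 16 TPM in KO against 183 ± 37 TPM in WT (limma adjusted p = 0.17). It also included the adaptor Gga1, at 33.6 ± 2.9 TPM in KO against 40.2 ± 4.8 TPM in WT (limma adjusted p = 0.38). Other pump subunits were lower in 7 of 12; Atp6v1g2 stood higher in KO, at 3.85 ± 0.95 TPM against 2.47 ± 0.54 in WT, and Atp6v0e2 at 9.28 ± 5.43 TPM in KO against 13.7 ± 7.0 in WT (limma adjusted p = 0.31 and 0.57). Regulators were lower in 13 of 18, with the Ragulator subunit Lamtor1 at 104 ± 22 TPM in KO against 127 ± 14 TPM in WT, and the GTPase Rragc at 48.9 ± 13.3 TPM in KO against 61.4 ± 10.4 TPM in WT (limma adjusted p = 0.42 and 0.44).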

How the data were processed

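RNA of adipose tissue was sequenced from 14 mice; per the labels' protocols, tissue was frozen, RNA was extracted with Trizol and 1 ug of it went into an Illumina TruSeq library. The authors deposited gene-level TPM values, 56552 rows by 14 libraries, each column summing to the fixed total of that unit. The submitters' processing notes name Bowtie 0.12.2, mm8 and mm9 without their roles; what quantified the TPM, on which annotation and with what strand setting is not given in the sources used here. Depth is unknown, so no counting interval is given.

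Rows of a symbol were summed. Genes that reached 1 TPM in 7 or more libraries (14719, all 43 members among them) were compared as log2(TPM + 1) with limma-trend (limma 3.58.1, R 4.3.3, robust, 2-sided, Benjamini-Hochberg over all genes), KO minus WT, with no covariate. Single genes also had 2-sided exact permutation tests over 3432 splits, with p-values not adjusted for the number of genes. Any gene whose groups do not overlap has the smallest possible permutation p, so that p restates the lack of overlap. The p-values set the group difference against the spread between mice within groups. The labels give no parentage or cages, so genotype cannot be separated from a shared litter or cage. The test was tried on simulated data. Members and lists were chosen with earlier results of these data known. Named in full were the 4 members of smallest p per role, and the 2 per list of other lysosomal genes. The score of a marker list is its mean log2 value in a library. Promoters and motifs are from RefSeq (GRCm38.p6). Alternatives were other pseudocounts, filters, scalings and priors, omission of libraries, weights per library, score covariates and a block for replicate number.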

Additional observations from a re-analysis of the deposited data

Results flagged for a closer look

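Within groups of 7 libraries, 6 of 88 gene and group combinations (43 members and Clec7a in each group) held a library whose gap to its nearest neighbour, on the log2 scale, was a larger share of the group's range than Dixon's 95% critical value; chance flags about 1 in 20. Hexa was 86.4 TPM in KO replicate 3, above 69.9 to 73.3 TPM in the other KO libraries. Naglu was 27.6 TPM in WT replicate 3, above 19.1 to 21.2 TPM in the other WT libraries. Neu1 was 13.5 TPM in WT replicate 4, below 20.3 to 24.7 TPM. Ids was 6.37 TPM and Tpp1 15.4 TPM in WT replicate 6, below 12.3 to 18.4 TPM and 33.9 to 49.4 TPM in the other WT libraries. Npc2 was 222 TPM in WT replicate 9, below 260 to 276 TPM.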

How the results depend on the processing

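Of 754 values (26 named members under 29 alternatives), 710 kept their direction and stayed short of the threshold, 25 passed it and 19 turned. Members changed numbered 1 under quantile normalization and 1 under median-ratio scaling (Glb1), 13 with library weights (all lower, of 823 genes) and 10 with the macrophage score as a covariate (of 2872 genes); leaving out 1 library gave 0 throughout. Of 92 other lysosomal genes, 14 were called with library weights, all lower, where 3.91% of all genes were lower and 1.68% higher. With the macrophage score 10 of the 92 were called lower and 4 higher, where 4.09% of all genes were lower and 15.4% higher. All genes changed numbered 3 in the main comparison, 1 without a filter, 19 under quantile normalization, 8 under median-ratio scaling, 6 without mitochondrially encoded genes, 1 with rows as deposited, 13 with the adipocyte score, 0 without the 3 lymphoid-poor libraries and 0 to 6 without 1 library. The count was 0 when the library left out was KO 1, 5 or 6 or was WT 3, 4, 5, 7, 8 or 9, it was 1 when KO 2 was left out and 6 when KO 7 was. Under the adipocyte score, Sgsh turned to -0.14, Atp6v1h to 0.0044, Tfeb to -0.26 and Mcoln1 to -8.3e-05. Atp6ap1 turned to 0.027 under quantile normalization and 0.040 with the macrophage score. Hexa, Lamp1, Npc2, Atp6v0d1 and Atp6v0c lay nearer to 0 under quantile normalization, at -0.41, -0.36, -0.32, -0.39 and -0.23, while Glb1 was at -0.56. Under median-ratio scaling the same 5 genes were at -0.54, -0.57, -0.52, -0.52 and -0.46, and Glb1 at -0.55. Mcoln1 turned to -0.0065 under median-ratio scaling, and without the 3 libraries Tfeb was -0.012 and Mcoln1 -0.046. Without 1 library the values lay between -0.046 and 0.17 for Tfeb and between -0.030 and 0.073 for Mcoln1. The causes were not tested.

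Same-numbered KO and WT libraries had deviations that correlated between -0.67 and 0.80, so the numbers were not taken as pairs. A replicate block over the 10 libraries with shared numbers left 0 genes changed, as did those libraries without the block (added after seeing the data), and Atp6ap1 was 0.055 in both. The median of the members lay between -0.31 and -0.15 without 1 library. TPM without read counts sets no detection limit.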
